A study of Rattus norvegicus with 9 samples.

Results

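Genes that carry out mitosis and segregate chromosomes were followed in a rat model of bladder cancer. The set is a list of 52 gene names. A gene counted as measured where the array annotation pairs at least 1 probe set with its symbol alone, and the probe set with the highest mean over the 9 arrays stood for the gene. This gave 45 measured genes of the 52, among 14217 genes in all. The other 7 (Nek2, Kif4a, Ndc80, Tpx2, Anln, Ckap2 and Ncapg) had no probe set paired with that symbol alone and are not analysed here.

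RNA came from 3 bladder tumors, typed as bladder transitional cell carcinoma (BTCC), from 3 pieces of adjacent normal tissue of the same 3 SD rats, and from 3 normal bladders of 3 other SD rats. MNU (N-methyl-N-nitrosourea), an alkylating carcinogen, was given into the bladder at 20 mg/ml, weekly over 10 weeks. All 9 labels repeat this MNU text with female sex and an age of 10 weeks, while the series design calls the last 3 animals normal rats. Adjacent tissue was therefore exposed to the carcinogen like the tumors, and how much muscle or stroma each piece held is not given. The labels tie the age of 10 weeks to the rats that were instilled and repeat it for each sample, so the age at sampling is not settled by them.

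In mitosis, the kinase Cdk1 with cyclins drives the cell into division, chromosomes condense, and kinetochores attach them to spindle microtubules. A checkpoint holds back their separation until all are attached, and the anaphase-promoting complex then releases the sister chromatids. Most of these genes are transcribed late in the cell cycle, so their RNA is low in tissue with few dividing cells, such as the slowly renewing urothelium of an adult bladder. Because whole tissue was measured, a larger share of dividing cells and more RNA per dividing cell cannot be told apart.

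Signals are given on the log2 scale, and 3 values in a row stand for arrays 1, 2 and 3 of a group. The mean linear signal after trimming 2% at each end was 500 on every array. Median log2 signal over probe sets lay between 6.87 and 7.17 in tumors, 6.95 and 7.05 in adjacent tissue, and 7.19 and 7.23 in normal bladder. Signals under 50 on the linear scale are called dim. Where all 3 arrays of the lower group were dim, the fold change is given as at least the higher group's mean divided by 50. Tests are from limma, each pair of groups fitted by itself, with Benjamini-Hochberg adjustment over 31042 probe sets and a threshold of 0.05.

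The mitosis genes were higher in tumors than in normal bladder almost throughout. Of 45 measured genes, 40 rose and 0 fell, whereas 13.6% of all genes rose and 9.95% fell. The 5 that did not pass were Prc1, Hmmr, Smc2, Smc4 and Foxm1. The median log2 fold change of the 45 genes was 2.67 (2.37 with the 11 genes that have only a bound set at it), against 0.05 over all genes, and the values ran from -0.38 for Smc4 to 4.98 for Ttk. All tumor arrays lay above all normal arrays for 42 of the 45 genes, while this held for 25.7% of all genes. The count of 40 was 25 without tumor 3, and it was 12 by the adjusted form of the test of means named in the methods. The share of all genes called in either direction was 11.9% and 7.58% under these settings, against 23.5% in the main test.

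Adjacent tissue was also above normal bladder. In this comparison 37 of the 45 genes rose and 0 fell, whereas 13.3% of all genes rose and 11.5% fell. The 8 genes that did not pass were Prc1, Hmmr, Smc2, Smc4, Foxm1, Aurka, Cdc25b and Dlgap5. The median log2 fold change was 2.28 (2.02 with bounds), against 0.01 over all genes, with values from -0.55 for Prc1 to 4.52 for Ttk. Every adjacent array exceeded every normal array for 39 of the 45 genes, against 24.8% of all genes. Both comparisons use the same 3 normal arrays, so their counts are not independent. Passing in tumors but not in adjacent tissue, as Aurka, Cdc25b and Dlgap5 did, does not show that the tissues differ. The count of 37 was 22 without adjacent 2 and 23 without normal 1, 24 without the mean-variance trend in limma, and 14 by the methods' test after adjustment. Of all genes, 21.1, 11.7, 13.3 and 10.4% passed in either direction under these 4 settings, against 24.8% in the main test.

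**Figure D1:**
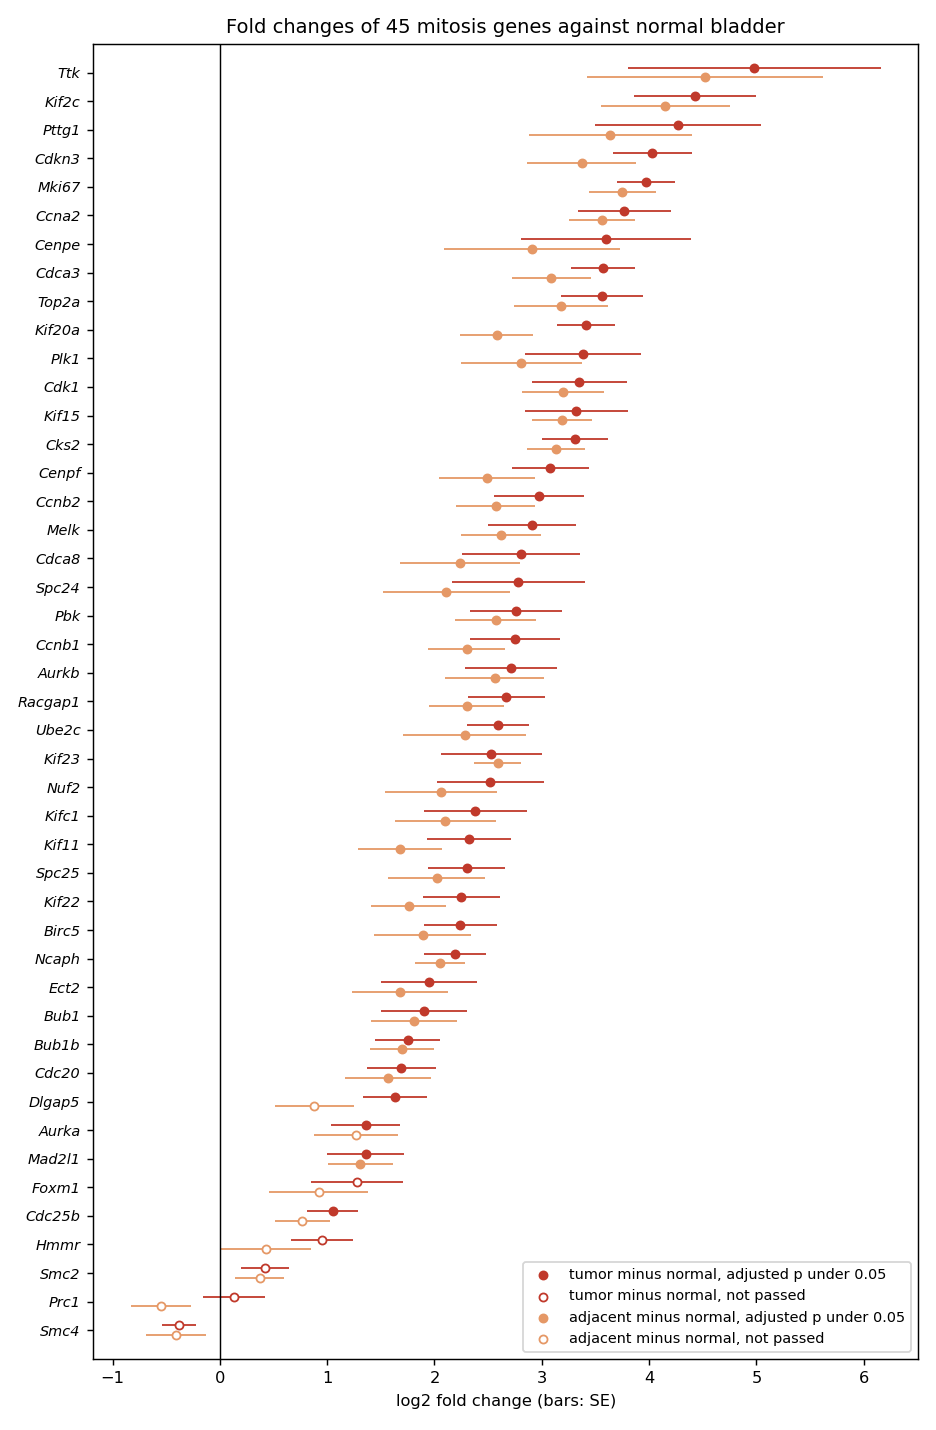
Log2 fold change of the 45 measured mitosis genes (horizontal axis, bars are SE), with tumor minus normal in red above adjacent minus normal in orange, 3 arrays per group. Filled points have an adjusted p under 0.05. Filled points number 40 in tumors and 37 in adjacent tissue, and Smc2, Prc1 and Smc4 stand at the bottom near 0. The 11 genes dim on all normal arrays, such as Ttk, have fitted values here and bounds in the text.

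The promoters of these genes are shown because the genes moved together and many share short motifs known from genes of late cell cycle transcription. RefSeq promoters (build GRCr8, 250 bases before to 50 after the first listed start) were at hand for 39 of the 45 genes. Ccna2, Aurkb, Pbk, Ube2c, Racgap1 and Foxm1 had no entry. Both strands were searched for the core of the cell cycle homology region (CHR, TTTGAA, or TTCAAA on the other strand), for the CCAAT box that the factor NF-Y binds (CCAAT or ATTGG), and for 1 E2F motif (GGCGGGAA or TTCCCGCC). Matches of different motifs that share a base were each counted. The stretches below are the 120 bases just before the start, read along the gene, with the CHR core and CCAAT box in capitals. The genes shown were picked by hand, and each holds a CHR core, as 26 of the 39 promoters do. The first 6 genes rose in tumors, and the last 3 did not pass the test.
Cdk1 (chr20:19265173-19265292, plus strand): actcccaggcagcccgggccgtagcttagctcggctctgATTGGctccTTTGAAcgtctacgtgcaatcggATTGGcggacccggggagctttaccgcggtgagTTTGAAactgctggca
Cks2 (chr17:13727520-13727639, minus strand): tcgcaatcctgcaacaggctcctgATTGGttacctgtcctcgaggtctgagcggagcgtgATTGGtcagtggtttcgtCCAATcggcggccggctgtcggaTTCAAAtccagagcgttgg
Cdc20 (chr5:137255800-137255919, minus strand): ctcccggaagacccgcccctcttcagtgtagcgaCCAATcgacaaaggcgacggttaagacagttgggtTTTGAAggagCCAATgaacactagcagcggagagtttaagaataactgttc
Pttg1 (chr10:28406327-28406446, minus strand): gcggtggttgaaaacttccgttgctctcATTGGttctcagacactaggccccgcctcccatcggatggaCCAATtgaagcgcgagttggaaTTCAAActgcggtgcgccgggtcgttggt
Kifc1 (chr20:5000809-5000928, plus strand): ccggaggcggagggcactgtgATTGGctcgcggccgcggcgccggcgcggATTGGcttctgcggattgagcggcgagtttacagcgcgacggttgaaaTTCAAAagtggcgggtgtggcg
Top2a (chr10:84473094-84473213, minus strand): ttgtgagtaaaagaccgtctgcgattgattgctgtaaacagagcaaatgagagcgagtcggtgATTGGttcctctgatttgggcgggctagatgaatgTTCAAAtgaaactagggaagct
Prc1 (chr1:143659361-143659480, plus strand): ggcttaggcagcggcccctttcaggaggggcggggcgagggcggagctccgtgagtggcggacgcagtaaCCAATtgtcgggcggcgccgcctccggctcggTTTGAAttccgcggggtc
Hmmr (chr10:25665216-25665335, minus strand): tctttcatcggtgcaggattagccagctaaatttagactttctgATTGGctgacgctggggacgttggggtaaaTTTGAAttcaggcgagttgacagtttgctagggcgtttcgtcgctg
Smc4 (chr2:155550142-155550261, plus strand): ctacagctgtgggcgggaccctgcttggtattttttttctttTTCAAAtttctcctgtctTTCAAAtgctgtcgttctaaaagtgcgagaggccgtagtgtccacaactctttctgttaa

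The CHR core was present in 26 of the 39 promoters (66.7%), against 12.3% of the 11700 measured genes with a promoter and 18.1% of all 27457 promoters. A CCAAT box was present in 30 (76.9%), against 37.3% of measured genes and 37.7% of all promoters, and 21 (53.8%) held 2 or more, against 12.5% of measured genes. Both motifs occurred together in 22 (56.4%), against 5.03% of measured genes. The E2F motif was found in 2 promoters, those of Kif23 and Ncaph (5.13%, against 3.53%). Aurka, Bub1, Melk and Kif2c held none of the 3 motifs in these exact letters, and all 4 rose in tumors. Variants of the motifs and other starts of a gene were not searched, so these 4 genes may still hold such sites. Of the 32 CHR matches, 21 lay within the last 100 bases before the start, as did 37 of the 69 CCAAT matches.

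Among the 35 genes with a promoter that rose in tumors, 22 held the CHR core and 26 a CCAAT box. Prc1, Hmmr, Smc2 and Smc4, the 4 with a promoter that did not pass, each held both. In the stretches above, Prc1 and Hmmr have 1 CHR core and 1 CCAAT box each, like Top2a, and the CCAAT box of Smc4 lies further upstream. Genes that rose and genes that did not pass both held the motifs. A match is a run of letters and not a measured binding site.

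Cdk1 and its regulators rose as a group, 7 of 7 in tumors (median log2 fold change 3.31) and 6 of 7 in adjacent tissue (3.13). Ccna2, the cyclin A that partners Cdk kinases in S phase and early mitosis, had log2 signals of 8.28, 9.77 and 9.87 in tumors, 8.59, 9.04 and 9.65 in adjacent tissue, and 5.75, 5.45 and 5.40 in normal bladder. It rose by 3.77 in tumors (SE 0.43, adjusted p = 0.0039) and by 3.56 in adjacent tissue (SE 0.31, adjusted p = 0.00073). Its normal signals were far below all others, and 2 of the 3 were dim. Cdk1, the kinase that starts mitosis, measured 8.82, 10.32 and 10.13 in tumors, 8.93, 9.76 and 10.13 in adjacent tissue and 5.85, 6.45 and 6.92 in normal bladder. It rose by 3.35 in tumors (SE 0.44, adjusted p = 0.0057) and by 3.20 in adjacent tissue (SE 0.38, adjusted p = 0.0019). Array 1 was the lowest in each group for Cdk1, and neither tissue overlapped normal bladder.

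Cks2, a small subunit that binds Cdk1, had 10.07, 10.93 and 11.35 in tumors, 10.18, 10.40 and 11.24 in adjacent tissue and 7.33, 7.44 and 7.65 in normal bladder. It rose by 3.31 in tumors (SE 0.31, adjusted p = 0.0025) and by 3.13 in adjacent tissue (SE 0.27, adjusted p = 0.00074). Its 3 normal arrays lay close together, so the rise was many times their spread. Cdkn3, a phosphatase that acts on Cdk kinases, had 8.81, 10.04 and 9.63 in tumors, 7.62, 9.40 and 9.45 in adjacent tissue and 5.64, 4.99 and 5.76 in normal bladder, and rose by 4.03 in tumors (SE 0.37, adjusted p = 0.0023) and by 3.37 in adjacent tissue (SE 0.51, adjusted p = 0.0044). Ccnb1 and Ccnb2, the B cyclins that activate Cdk1, rose by 2.75 and 2.97 in tumors and by 2.30 and 2.57 in adjacent tissue.

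Cdc25b, a phosphatase that removes the inhibitory phosphates of Cdk1, moved least in this group. Its signals were 9.19, 8.63 and 8.97 in tumors, 8.50, 8.42 and 9.01 in adjacent tissue, and 7.99, 7.46 and 8.18 in normal bladder. It rose by 1.05 in tumors (SE 0.24, adjusted p = 0.027), a call that ended without tumor 3 or any 1 normal array (adjusted p up to 0.087). In adjacent tissue its difference of 0.77 did not pass (SE 0.26, adjusted p = 0.078), although all adjacent arrays were above all normal arrays. The calls of the other 6 genes held in both comparisons when each array was left out in turn.

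Of the other mitotic kinases, 8 of 8 measured rose in tumors (median 2.73) and 7 of 8 in adjacent tissue (2.57). With the 4 kinases that were dim on all normal arrays set at their bounds, the medians were 2.20 in tumors and 1.81 in adjacent tissue. Aurkb, the kinase of the chromosomal passenger complex, had 7.19, 8.33 and 8.79 in tumors, 6.99, 8.10 and 8.78 in adjacent tissue and 5.22, 5.65 and 5.31 in normal bladder. It rose by 2.71 in tumors (SE 0.43, adjusted p = 0.0089) and by 2.56 in adjacent tissue (SE 0.46, adjusted p = 0.0081). Arrays 1 were again the lowest in tumors and in adjacent tissue. Melk, a kinase of dividing and progenitor cells, measured 7.14, 8.52 and 8.43 in tumors, 7.14, 7.76 and 8.33 in adjacent tissue and 5.08, 5.25 and 5.03 in normal bladder. All normal values were dim, so Melk was at least 5.23-fold higher in tumors (adjusted p = 0.0065) and at least 4.28-fold higher in adjacent tissue (adjusted p = 0.0033). Pbk, a kinase active in mitosis, had 7.02, 8.17 and 8.39 in tumors, 7.29, 7.46 and 8.25 in adjacent tissue and 5.50, 4.69 and 5.10 in normal bladder. Pbk was at least 4.64-fold higher in tumors (adjusted p = 0.0089) and at least 4.06-fold higher in adjacent tissue (adjusted p = 0.0041).

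Bub1b, which encodes the checkpoint protein BubR1, had 7.17, 7.38 and 7.77 in tumors, 7.15, 7.51 and 7.51 in adjacent tissue and 6.03, 5.42 and 5.64 in normal bladder. It rose by 1.75 in tumors (SE 0.30, adjusted p = 0.011, and 0.052 without normal 2) and by 1.70 in adjacent tissue (SE 0.30, adjusted p = 0.0077). Aurka, the kinase of the spindle poles, had 7.31, 7.56 and 8.01 in tumors, 7.0, 7.39 and 8.20 in adjacent tissue and 6.42, 5.75 and 6.62 in normal bladder. It rose by 1.36 in tumors (SE 0.32, adjusted p = 0.029), and this call ended without tumor 2, tumor 3 or any 1 normal array (adjusted p up to 0.095). In adjacent tissue its difference of 1.27 did not pass (SE 0.39, adjusted p = 0.059, and 0.032 without adjacent 1), with no overlap between the groups.

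Plk1, a kinase used from mitotic entry to cytokinesis, was at least 5.17-fold higher in tumors and at least 3.50-fold higher in adjacent tissue. Bub1, a checkpoint kinase at kinetochores, rose by 1.90 in tumors and 1.81 in adjacent tissue. Ttk, which encodes the checkpoint kinase Mps1, had the largest fitted change of all 45 genes, but its 3 normal signals of 3.99, 0.12 and 4.45 were dim and far apart. Its bounds were 4.57-fold in tumors and 3.32-fold in adjacent tissue. The calls of Ttk and of Bub1 each ended without some arrays, normal 1 among them, in both comparisons (adjusted p up to 0.10 for Ttk and 0.083 for Bub1).

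The genes of the spindle checkpoint and of the switch to anaphase rose in both tissues, 4 of 4 each, with medians of 2.14 in tumors and 1.93 in adjacent tissue. Pttg1 encodes securin, the inhibitor that keeps separase from cutting cohesin. It had 7.39, 9.40 and 9.60 in tumors, 6.78, 8.54 and 9.17 in adjacent tissue and 4.15, 5.86 and 3.56 in normal bladder, with 2 of 3 normal arrays dim. It rose by 4.27 in tumors (SE 0.77, adjusted p = 0.013) and by 3.64 in adjacent tissue (SE 0.76, adjusted p = 0.015). Ube2c, the ubiquitin-conjugating enzyme of the anaphase-promoting complex, had 8.59, 9.21 and 9.70 in tumors, 7.46, 9.12 and 10.01 in adjacent tissue and 6.46, 6.54 and 6.74 in normal bladder. It rose by 2.59 in tumors (SE 0.29, adjusted p = 0.0037) and by 2.28 in adjacent tissue (SE 0.57, adjusted p = 0.028). The adjacent arrays of Ube2c spanned a wider range than the tumors.

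Cdc20, the protein that activates the complex at anaphase, had 7.95, 8.88 and 9.01 in tumors, 7.61, 8.61 and 9.24 in adjacent tissue and 6.71, 6.80 and 7.25 in normal bladder. It rose by 1.69 in tumors (SE 0.32, adjusted p = 0.015) and by 1.57 in adjacent tissue (SE 0.40, adjusted p = 0.032). Mad2l1, which encodes the checkpoint protein Mad2 that holds Cdc20 inactive, measured 7.05, 8.45 and 7.84 in tumors, 7.21, 7.82 and 8.17 in adjacent tissue and 6.33, 6.39 and 6.54 in normal bladder. It rose by 1.36 in tumors (SE 0.36, adjusted p = 0.042) and by 1.31 in adjacent tissue (SE 0.30, adjusted p = 0.021). Further probe sets of Mad2l1 did not pass. They differed by 1.01 and 1.32 in tumors (adjusted p = 0.071 and 0.077) and by 0.41 and 1.23 in adjacent tissue (adjusted p = 0.56 and 0.076). By the probe set that stood for each gene, no array of either tissue reached down to the normal range for these 4 genes. The call of Ube2c in tumors was the only 1 of the 8 calls here that held without each array in turn. The others ended without 3 or more of the arrays, normal 1 in every case, with adjusted p up to 0.13 for Mad2l1 in tumors and 0.12 for Cdc20 in adjacent tissue.

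Kinetochore genes rose in both tissues, 5 of 5 measured, with medians of 2.78 in tumors and 2.11 in adjacent tissue. With the 2 genes that have only a bound set at it, the medians were 2.47 and 2.02. Cenpf, a large protein of the outer kinetochore, had 7.77, 7.96 and 8.62 in tumors, 6.75, 7.71 and 8.12 in adjacent tissue and 5.06, 4.56 and 5.50 in normal bladder. It was at least 5.54-fold higher in tumors (adjusted p = 0.0042) and at least 3.68-fold higher in adjacent tissue (adjusted p = 0.0083). Nuf2, Spc24 and Spc25 are subunits of the Ndc80 complex, which grips microtubule ends. Nuf2 had 8.01, 9.15 and 9.24 in tumors, 7.45, 8.55 and 9.02 in adjacent tissue and 5.34, 6.94 and 6.57 in normal bladder, and rose by 2.52 in tumors (SE 0.50, adjusted p = 0.017) and by 2.06 in adjacent tissue (SE 0.52, adjusted p = 0.030). Spc25 had 7.44, 8.24 and 8.31 in tumors, 6.78, 8.21 and 8.14 in adjacent tissue and 5.62, 5.27 and 6.19 in normal bladder, and rose by 2.30 in tumors (SE 0.36, adjusted p = 0.0085) and by 2.02 in adjacent tissue (SE 0.45, adjusted p = 0.020). The tissues overlapped each other and stood clear of normal bladder for all 3 genes.

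Spc24 rose by 2.78 in tumors (SE 0.62, adjusted p = 0.025) and by 2.11 in adjacent tissue (SE 0.59, adjusted p = 0.043). Cenpe, a kinesin that carries chromosomes to the spindle equator, was dim on all normal arrays and was at least 3.21-fold higher in tumors and at least 1.98-fold higher in adjacent tissue. The calls of Nuf2, Spc24 and Cenpe ended in both comparisons without 3 or more of the arrays, normal 3 among them (adjusted p up to 0.11). The call of Cenpf held in both comparisons without each array in turn, and that of Spc25 held so in tumors only.

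Kinesins, the motors that build and move the spindle, rose in 7 of 7 measured cases in tumors (median 2.53) and in adjacent tissue (2.58), or 2.38 and 2.07 with the 3 that have only a bound set at it. Kif20a, needed for cytokinesis, had 8.25, 8.61 and 8.77 in tumors, 7.48, 8.17 and 7.48 in adjacent tissue and 5.20, 4.80 and 5.41 in normal bladder. It was at least 7.46-fold higher in tumors (adjusted p = 0.0018) and at least 4.20-fold higher in adjacent tissue (adjusted p = 0.0026). Kif15, which helps to keep the spindle bipolar, had 7.55, 9.29 and 9.16 in tumors, 8.27, 8.61 and 8.73 in adjacent tissue and 4.97, 5.61 and 5.46 in normal bladder. Kif15 was at least 8.13-fold higher in tumors (adjusted p = 0.0072) and at least 7.45-fold higher in adjacent tissue (adjusted p = 0.00078). Tumor 1 was below all other tumor and adjacent arrays for Kif15 and still above the normal range.

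Kif2c, which takes apart microtubule ends at centromeres, had 6.96, 7.93 and 8.03 in tumors, 6.77, 7.17 and 8.13 in adjacent tissue and 2.50, 2.88 and 4.25 in normal bladder. It was at least 3.99-fold higher in tumors (adjusted p = 0.0053) and at least 3.28-fold higher in adjacent tissue (adjusted p = 0.0039). Kif23, the kinesin of the centralspindlin complex in cytokinesis, had 10.29, 12.06 and 12.09 in tumors, 11.11, 11.65 and 11.85 in adjacent tissue and 9.23, 8.81 and 8.80 in normal bladder. It rose by 2.53 in tumors (SE 0.47, adjusted p = 0.014, and up to 0.065 without tumor 3 or any 1 normal array) and by 2.59 in adjacent tissue (SE 0.22, adjusted p = 0.00068). A second probe set of Kif23 gave 4.86, 6.50 and 7.23 in tumors, 4.41, 6.64 and 6.41 in adjacent tissue and 5.69, 3.20 and 4.82 in normal bladder. That probe set overlapped normal bladder in both tissues.

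Kif11, which pushes the spindle poles apart, Kif22, which moves chromosome arms, and Kifc1, which draws spindle poles together, rose by 2.32, 2.25 and 2.38 in tumors and by 1.68, 1.76 and 2.10 in adjacent tissue. The calls of Kif22 held without each array in turn, and that of Kif11 in adjacent tissue ended without adjacent 2 or any 1 normal array (adjusted p up to 0.079). The call of Kifc1 in tumors ended without tumor 2, tumor 3, normal 1 or normal 2, with adjusted p up to 0.068, and its call in adjacent tissue ended without adjacent 2, at 0.062.

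Spindle proteins, of which 3 of 5 were measured, were the group that moved least. Dlgap5, which stabilizes spindle microtubules, had 7.56, 8.27 and 8.19 in tumors, 6.56, 7.57 and 7.62 in adjacent tissue and 6.74, 6.02 and 6.37 in normal bladder. It rose by 1.63 in tumors (SE 0.30, adjusted p = 0.013, and up to 0.058 without tumor 3, normal 2 or normal 3), and its difference of 0.88 in adjacent tissue did not pass (SE 0.37, adjusted p = 0.15, and 0.030 without adjacent 1). Adjacent 1 lay inside the normal range. Hmmr, which encodes a hyaluronan receptor that also binds the spindle, had 6.54, 6.82 and 7.09 in tumors, 5.56, 6.98 and 6.36 in adjacent tissue and 6.05, 5.66 and 5.91 in normal bladder. Its difference was 0.95 in tumors (SE 0.29, adjusted p = 0.063) and 0.43 in adjacent tissue (SE 0.42, adjusted p = 0.55). All 3 tumors were above normal bladder for Hmmr, and without tumor 1 it passed, at an adjusted p of 0.038.

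Prc1, which bundles microtubules of the central spindle, was as bright in normal bladder as in the tumors. It had 10.13, 9.47 and 9.33 in tumors, 8.56, 8.91 and 9.39 in adjacent tissue and 9.42, 9.98 and 9.11 in normal bladder. The difference was 0.13 in tumors (SE 0.29, adjusted p = 0.79) and -0.55 in adjacent tissue (SE 0.28, adjusted p = 0.23). Tumor 1 was the highest tumor array for Prc1, unlike for most of the set, and the tumor difference was -0.11 without it and -0.06 without normal 3.

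**Figure D2:**
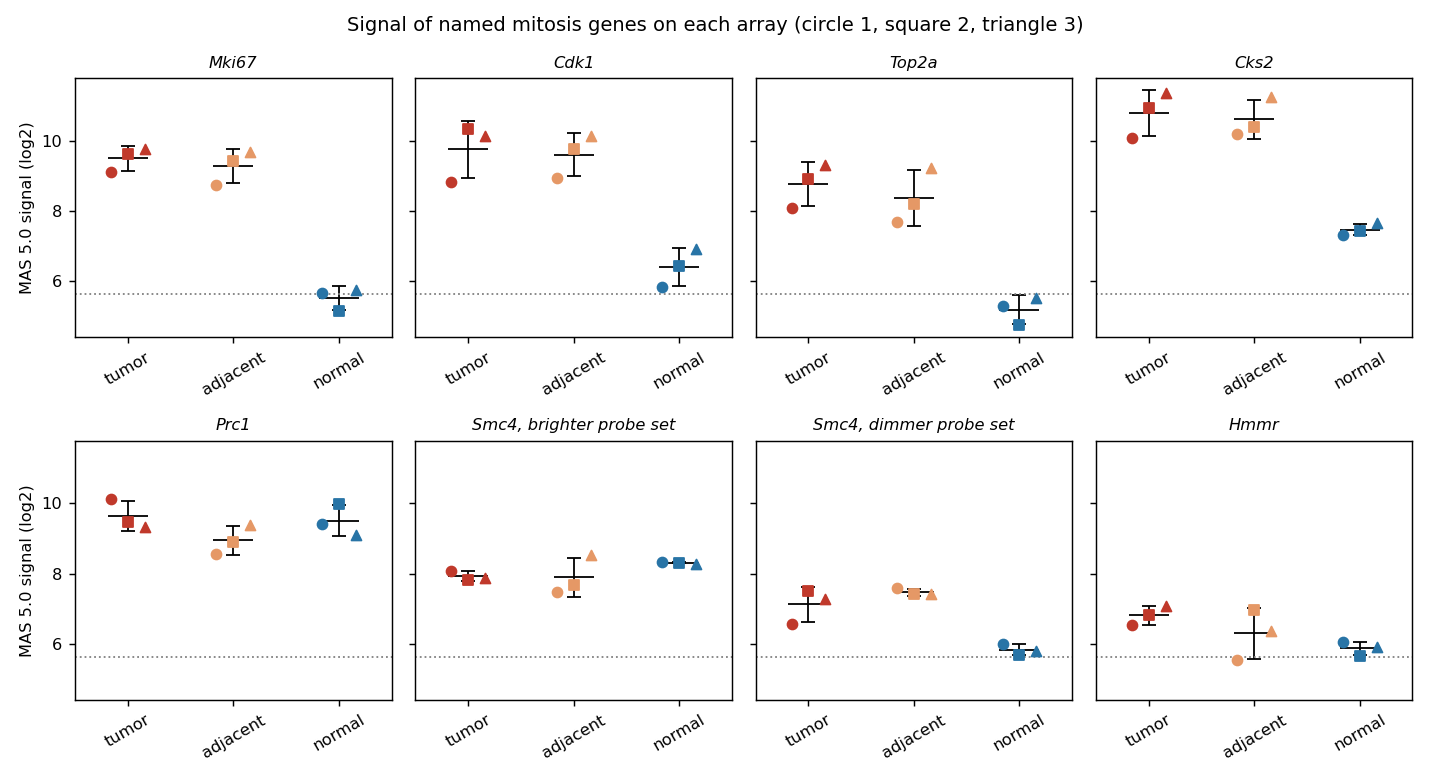
Log2 signal (vertical axis) on each array for 7 mitosis genes, with both probe sets of Smc4, in tumors, adjacent tissue and normal bladder. Symbols are arrays 1, 2 and 3, lines are the mean and SD of 3 arrays, and the dotted line is the limit of 50. Mki67, Cdk1, Top2a and Cks2 in the upper row separate normal bladder from both tissues, while Prc1 and the brighter Smc4 probe set do not rise and the dimmer Smc4 probe set does.

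The genes of cytokinesis and the chromosomal passenger complex rose in both tissues, 4 of 4 measured, with medians of 2.46 in tumors and 2.07 in adjacent tissue. Birc5 encodes survivin and Cdca8 encodes borealin, both partners of Aurkb in the passenger complex. Birc5 had 7.34, 8.23 and 8.09 in tumors, 6.78, 7.42 and 8.42 in adjacent tissue and 5.71, 5.23 and 6.0 in normal bladder, and rose by 2.24 in tumors (SE 0.34, adjusted p = 0.0082) and by 1.89 in adjacent tissue (SE 0.45, adjusted p = 0.025). Cdca8 had 7.90, 8.78 and 8.83 in tumors, 7.30, 7.99 and 8.50 in adjacent tissue and 5.68, 4.64 and 6.76 in normal bladder, and rose by 2.81 in tumors (SE 0.55, adjusted p = 0.016) and by 2.24 in adjacent tissue (SE 0.56, adjusted p = 0.028). The normal arrays of Cdca8 were spread widely but stayed below the lowest adjacent array. Racgap1, the partner of Kif23 in centralspindlin, had 8.58, 9.42 and 9.75 in tumors, 8.29, 9.03 and 9.32 in adjacent tissue and 6.22, 6.39 and 7.12 in normal bladder. It rose by 2.67 in tumors (SE 0.36, adjusted p = 0.0061) and by 2.30 in adjacent tissue (SE 0.35, adjusted p = 0.0044). Ect2, the exchange factor that Racgap1 recruits to start furrowing, rose by 1.95 in tumors and by 1.68 in adjacent tissue. The calls of Ect2 and Cdca8 ended in both comparisons without some arrays, normal 1 among them, as did that of Birc5 in adjacent tissue (adjusted p up to 0.14 for Ect2, 0.092 for Cdca8 and 0.094 for Birc5).

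Chromosome structure genes split. Mki67, which encodes the proliferation marker Ki-67 that coats mitotic chromosomes, had 9.10, 9.63 and 9.77 in tumors, 8.74, 9.41 and 9.68 in adjacent tissue and 5.67, 5.15 and 5.76 in normal bladder. The means were 9.50 ± 0.35 in tumors, 9.28 ± 0.48 in adjacent tissue and 5.53 ± 0.33 in normal bladder (SD, n = 3 each). It rose by 3.97 in tumors (SE 0.27, adjusted p = 0.0013) and by 3.75 in adjacent tissue (SE 0.31, adjusted p = 0.00065). Top2a, the topoisomerase that untangles sister chromatids, had 8.08, 8.90 and 9.30 in tumors, 7.69, 8.19 and 9.23 in adjacent tissue and 5.31, 4.75 and 5.53 in normal bladder. Top2a was at least 8.65-fold higher in tumors (adjusted p = 0.0033) and at least 6.62-fold higher in adjacent tissue (adjusted p = 0.0031). Ncaph, a non-SMC subunit of condensin, had 8.08, 8.43 and 9.03 in tumors, 8.23, 8.37 and 8.53 in adjacent tissue and 6.45, 6.05 and 6.48 in normal bladder. It rose by 2.19 in tumors (SE 0.29, adjusted p = 0.0057) and by 2.05 in adjacent tissue (SE 0.23, adjusted p = 0.0016). All 3 genes held their calls without each array in turn.

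Smc2 and Smc4, the ATPase subunits of the same condensin complexes, did not pass. Smc2 had 8.81, 9.16 and 9.24 in tumors, 8.96, 8.82 and 9.31 in adjacent tissue and 8.70, 8.28 and 8.98 in normal bladder. Its difference was 0.42 in tumors (SE 0.22, adjusted p = 0.24) and 0.37 in adjacent tissue (SE 0.23, adjusted p = 0.31), with overlapping groups. Smc4 by its brighter probe set had 8.09, 7.81 and 7.88 in tumors, 7.47, 7.69 and 8.52 in adjacent tissue and 8.32, 8.31 and 8.29 in normal bladder. It differed by -0.38 in tumors (SE 0.16, adjusted p = 0.14) and by -0.41 in adjacent tissue (SE 0.28, adjusted p = 0.37). The 3 tumors lay just below the normal arrays, which hardly varied, and 20.1% of all genes had every tumor array below every normal array. Without adjacent 3 the adjacent difference passed as lower, at an adjusted p of 0.031.

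The dimmer probe set of Smc4 went the other way. It had 6.57, 7.52 and 7.29 in tumors, 7.58, 7.41 and 7.42 in adjacent tissue and 6.01, 5.70 and 5.81 in normal bladder. It rose by 1.29 in tumors (SE 0.33, adjusted p = 0.036) and by 1.63 in adjacent tissue (SE 0.26, adjusted p = 0.0054). The direction of Smc4 therefore depends on the probe set, and which of them follows the transcript was not tested. Over the 12 genes with several probe sets, 16 further probe sets were tested, of which 6 rose and 0 fell in tumors and 4 rose and 0 fell in adjacent tissue. Of all probe sets, 8.88% rose and 9.08% fell in tumors, and 8.65% rose and 10.3% fell in adjacent tissue. The further probe sets of Ttk, Mad2l1, Kif2c, Kif11 and Kif23 passed in neither tissue, and that of Racgap1 passed in tumors only. Those of Cdc20 differed among themselves. A further Cdc20 probe set rose by 3.15 in tumors and 2.52 in adjacent tissue, and another rose by 1.83 in tumors only. The rest passed in neither tissue, and the dimmest of them differed by -0.30 in tumors and -1.45 in adjacent tissue. With the probe sets of a gene averaged, the calls of Cdc20, Kif11, Kif23 and Ttk ended in tumors, and those of Cdc20, Mad2l1 and Ttk in adjacent tissue.

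Of the genes of transcription and mitotic entry, Cdca3, known as a trigger of mitotic entry, had 8.41, 9.23 and 9.33 in tumors, 7.84, 8.52 and 9.17 in adjacent tissue and 5.25, 5.37 and 5.64 in normal bladder. Cdca3 was at least 10.2-fold higher in tumors (adjusted p = 0.0020) and at least 7.28-fold higher in adjacent tissue (adjusted p = 0.0019). Foxm1, the forkhead factor that drives transcription of many genes in this set, had 7.01, 7.14 and 7.45 in tumors, 6.37, 6.99 and 7.16 in adjacent tissue and 6.57, 6.18 and 5.01 in normal bladder. Its difference was 1.28 in tumors (SE 0.43, adjusted p = 0.083) and 0.92 in adjacent tissue (SE 0.46, adjusted p = 0.22). All tumors were above normal bladder for Foxm1, while adjacent 1 lay below normal 1.

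No mitosis gene passed between tumors and adjacent tissue (0 of 45 by limma, and 0% of all genes in either direction), and 1 of the 45 had an unadjusted p under 0.05, against 2.64% of all genes. The equal-variance test of means named in the methods gave 1 gene unadjusted, against 3.12% of all genes, and 0 after adjustment. Of the 45 fitted differences, 44 were positive, against 53.0% of all genes, and their median was 0.31, against 0.02 over all genes. Kif20a had the largest difference, 0.83 (SE 0.28, adjusted p = 1), and its tumor arrays of 8.25, 8.61 and 8.77 lay above its adjacent arrays of 7.48, 8.17 and 7.48. It was the 1 gene of 45 whose groups did not overlap in this direction, which held for 4.10% of all genes. Dlgap5 followed at 0.75 (SE 0.37, adjusted p = 1). Smc4 at 0.03 (SE 0.32) and Kif23 at -0.06 (SE 0.48) were the lowest, both with an adjusted p of 1, and the sign of each changed with the arrays or probe sets used. The median of the 45 differences was 0.01 without adjacent 1 and 0.66 without tumor 1, so its size rests on single arrays. So does the count of positive differences, which was 24 of 45 without adjacent 1, 31 without tumor 3 and 38 without tumor 2.

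**Figure D3:**
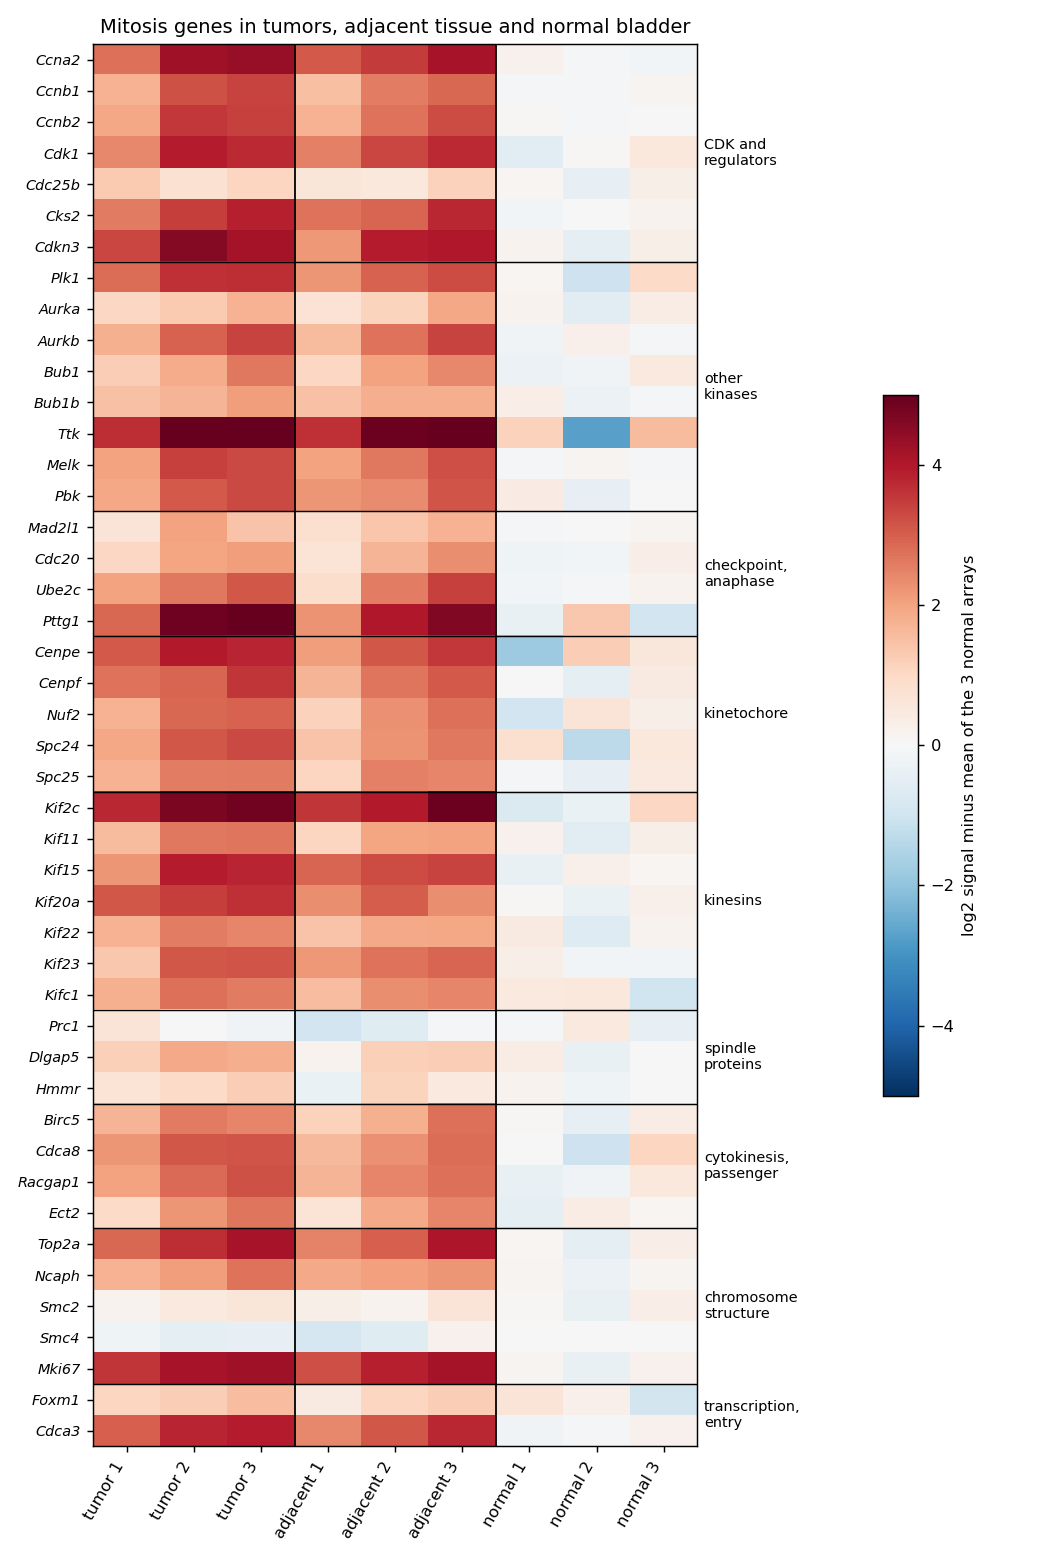
Log2 signal of each measured mitosis gene minus its mean over the 3 normal arrays (color), with genes in rows by role and arrays in columns. Tumor and adjacent columns are red for nearly all genes, paler for arrays 1 of both tissues, and Prc1, Smc2 and Smc4 stay pale throughout.

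The arrays within each tissue were not alike. Median log2 signal over the 45 genes was 7.85, 8.64 and 8.93 in tumors, 7.45, 8.19 and 8.53 in adjacent tissue, and 6.03, 5.66 and 6.17 in normal bladder. Tumor 1 was the lowest of the tumors for 42 of the 45 genes, against 36.9% of all genes. Adjacent 1 was the lowest adjacent array for 42 genes, against 33.5% of all genes, and adjacent 3 was the highest for 41, against 33.2%. For 40 genes both arrays numbered 1 were the lowest of their group, which held for 17.7% of all genes. The median SD of a gene over 3 arrays was 0.58 in tumors, 0.60 in adjacent tissue and 0.40 in normal bladder. On the normal arrays 16, 21 and 17 of the 45 genes were dim, whereas none was dim on a tumor array and 1, Hmmr, on adjacent 1.

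Markers of cell types differed between the groups as well, some lists higher and others lower than in normal bladder. Summed over the 45 genes, the linear signal was 289, 555 and 604% of the normal mean in tumors and 251, 396 and 533% in adjacent tissue, with 96.1 to 104% on the normal arrays. Smooth muscle markers (8 of 8 measured) stood at 75.3, 2.19 and 2.60% in tumors and 34.0, 9.94 and 4.50% in adjacent tissue, so tumor 1 and adjacent 1, lowest in mitosis genes, kept the most muscle signal of their groups. Fibroblast markers (6 of 6) were at 77.4, 8.21 and 19.1% in tumors and 64.5, 54.1 and 23.0% in adjacent tissue. Of the muscle markers, 3 of 8 passed as lower in tumors and 8 of 8 in adjacent tissue. For the fibroblast markers these counts were 0 of 6 and 3 of 6. Of all genes, 9.95% fell in tumors and 11.5% in adjacent tissue.

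General epithelial markers (6 of 6 measured) were at 136, 170 and 144% of the normal mean in tumors and 124, 137 and 105% in adjacent tissue. Basal urothelial markers (4 of 5) stood far higher, at 946, 1234 and 1116% in tumors and 955, 1026 and 1511% in adjacent tissue. The basal markers moved unequally. Krt14 rose by 4.81 on the log2 scale in tumors and by 4.65 in adjacent tissue. Cd44 rose by 0.82 in tumors (adjusted p = 0.02), and its difference of 0.84 in adjacent tissue did not pass (adjusted p = 0.059). Umbrella cell markers (5 of 6) were at 90.9, 73.7 and 63.4% in tumors and 89.6, 99.3 and 49.8% in adjacent tissue. Single members moved further than that sum. Krt20 fell by 3.82 on the log2 scale in tumors (adjusted p = 0.021) and by 1.70 in adjacent tissue (adjusted p = 0.0053), and Upk1a fell by 1.31 in tumors (adjusted p = 0.048), where Upk1b and Upk3a differed by -0.17 and -0.15 and did not pass. The markers of bladder lining were thus present in all 3 groups. Leukocyte markers (10 of 11, of which Cd79b was dim on all 9 arrays) reached 237, 384 and 520% in tumors and 304, 283 and 1068% in adjacent tissue, the highest value on adjacent 3. Of the 10, 6 rose in tumors and 7 in adjacent tissue. They moved unequally, since S100a9 was 108-fold higher in tumors and 115-fold higher in adjacent tissue, while Ptprc differed by 0.73 in tumors (adjusted p = 0.091) and rose by 1.72 in adjacent tissue (adjusted p = 0.0027). Endothelial markers (4 of 5) were at 143, 137 and 100% in tumors and 135, 126 and 99.3% in adjacent tissue. On the normal arrays the 7 marker sums ranged from 89.1 to 113%. The part of these cell types in the rise of the mitosis genes was not tested.

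**Figure D4:**
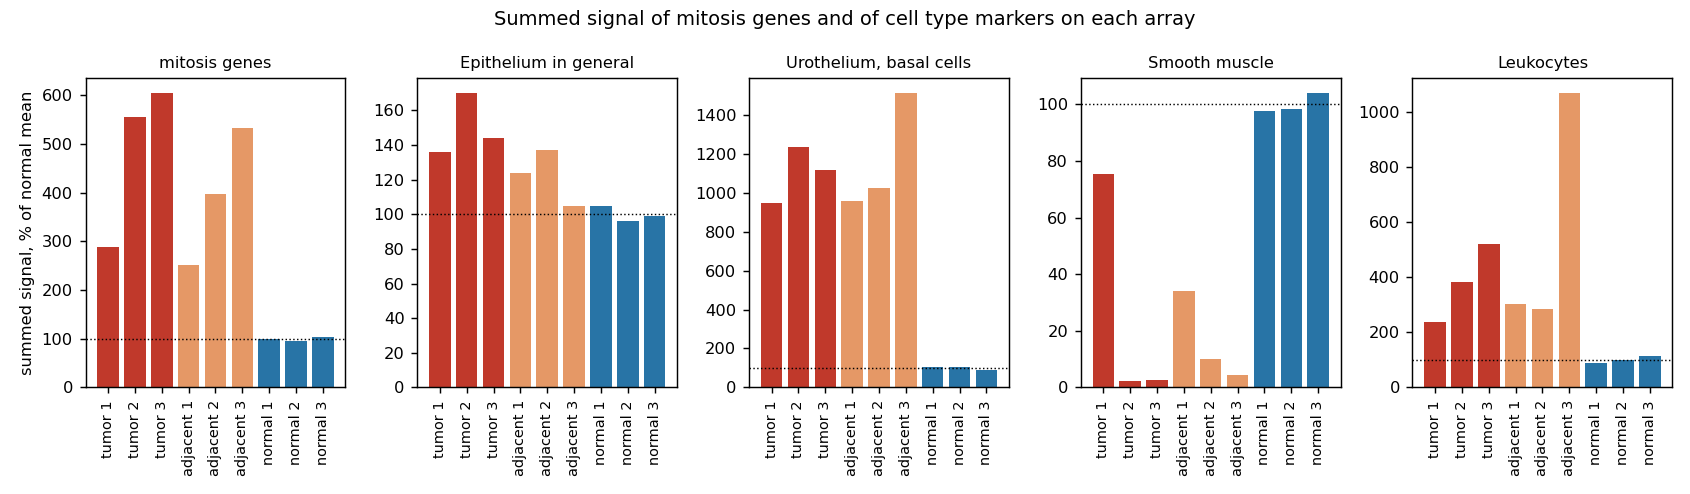
Summed linear signal on each array as a percentage of the normal mean (vertical axis, starting at 0 with its own scale in each panel) for the 45 mitosis genes and 4 lists of cell type markers. The mitosis genes stand at 289 to 604% in tumors and 251 to 533% in adjacent tissue, smooth muscle markers stand at 2.19% on tumor 2, and leukocyte markers peak at 1068% on adjacent 3.

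Other genes around mitosis were counted in the same way. Beside these counts, 13.6% of all genes rose and 9.95% fell in tumors, and 13.3% rose and 11.5% fell in adjacent tissue. Of 51 further mitosis genes measured, 27 rose and 1 fell in tumors, and 25 rose and 1 fell in adjacent tissue, with medians of 1.83 and 1.47 (1.21 and 0.94 with bounds). Aspm, a spindle pole protein, rose by 3.49 in tumors (SE 0.35, adjusted p = 0.0028) and by 3.18 in adjacent tissue (SE 0.36, adjusted p = 0.0016). Gtse1, a microtubule-binding protein, rose by 2.48 in adjacent tissue (SE 0.30, adjusted p = 0.0019). Zwint, a kinetochore protein, fell by 0.66 in tumors (SE 0.16, adjusted p = 0.033) and by 1.0 in adjacent tissue (SE 0.19, adjusted p = 0.010).

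Subunits of the anaphase-promoting complex and of cohesin are present through much of the cell cycle. Of 14 genes of the complex with its activator Fzr1, 1 rose and 1 fell in tumors and 0 passed in adjacent tissue, where 5 had an unadjusted p under 0.05, against 39.8% of all genes. In tumors Fzr1 rose by 0.75 (SE 0.17, adjusted p = 0.026), and Anapc1, the largest subunit, fell by 0.79 (SE 0.17, adjusted p = 0.022). The medians were 0.09 in tumors and 0.08 in adjacent tissue. Of 9 cohesin genes, 0 rose and 1 fell in tumors, where 9.95% of all genes fell, and 0 rose and 3 fell in adjacent tissue, where 11.5% did. Their medians were -0.04 in tumors and 0.00 in adjacent tissue. Pds5b, a regulator of cohesin, fell by 0.97 in tumors (SE 0.16, adjusted p = 0.0093) and by 0.97 in adjacent tissue (SE 0.15, adjusted p = 0.0043), and the subunit Stag2 fell by 0.45 in adjacent tissue (SE 0.11, adjusted p = 0.025), as did Stag1 by 0.61 (SE 0.17, adjusted p = 0.043).

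The MuvB and DREAM complexes, with E2F and NF-Y factors, bind promoters of cell cycle genes. Of 16 such genes measured, 4 rose and 0 fell in tumors, where 13.6% of all genes rose and 9.95% fell. In adjacent tissue 6 rose and 1 fell, where 13.3% of all genes rose and 11.5% fell. The medians were 0.57 in tumors and 0.46 in adjacent tissue. Mybl2, which binds MuvB in dividing cells, was at least 2.79-fold higher in tumors (adjusted p = 0.016). E2f8, a repressor of E2F genes, was at least 3.29-fold higher in tumors (adjusted p = 0.017) and at least 2.92-fold higher in adjacent tissue (adjusted p = 0.014). In adjacent tissue Rbl1, which encodes the DREAM subunit p107, rose by 0.94 (SE 0.23, adjusted p = 0.028). The subunits of NF-Y moved unequally. Nfyb fell by 0.71 in adjacent tissue (SE 0.18, adjusted p = 0.030), and its difference of -0.77 in tumors did not pass (adjusted p = 0.06). Nfya rose by 0.83 in tumors (adjusted p = 0.044) and by 0.82 in adjacent tissue (adjusted p = 0.043). Nfyc passed in neither tissue. Of 26 DNA replication genes measured, 16 rose and 0 fell in tumors and 18 rose and 0 fell in adjacent tissue, with medians of 1.29 and 1.14. Gins1, a subunit of the replicative helicase, rose by 2.48 in tumors (SE 0.38, adjusted p = 0.0082) and by 2.05 in adjacent tissue (SE 0.28, adjusted p = 0.0028). None of the genes in these 5 lists passed between tumors and adjacent tissue, and 1, among the further mitosis genes, had an unadjusted p under 0.05.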

How the data were processed

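RNA of 9 rat tissue samples was hybridised to 1 Affymetrix array each. The authors labelled it by 3' in vitro transcription, scanned the arrays with Command Console Software 3.1, and used Gene Spring Software 11.0 for normalization by MAS 5.0. The authors deposited log2 signals, which were tested as they stand. Signals of arrays give no read depth, and 3 arrays per group limit the precision.

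The table holds 31099 probe sets, of which 57 array controls were left out. The annotation used names 1 gene for 20826 of the rest, several for 436 and none for 9780. Groups were fitted 2 at a time in R 4.3.3 with limma 3.58.1 (lmFit, then eBayes with its trend option), since tumors and adjacent tissue come from the same rats. The main fit of tumors against adjacent tissue had no block for the rat, so it did not use this pairing. The fitting was tested on simulated data. Groups follow the sample titles. P-values measure the spread between the samples of a group, which the design text ascribes to separate rats.

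The genes and lists were chosen with earlier results of these data known, and the limit of 50 was taken over from an earlier analysis of them. Full statistics are given for the 3 genes of each role with the smallest p, for every gene that did not pass, for the 2 highest and 2 lowest differences of tumors against adjacent tissue, and for up to 2 genes of each comparison list in each direction. Other genes are named with fewer values. One gene that this rule names is not reported here.

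The alternatives were quantile normalization, centring on array medians, removal of probe sets whose mean is under the 40th percentile, 50 added before log2, no variance trend, a fit of all 9 arrays, the methods' test of means with equal variances, averaging over a gene's probe sets, the replicate number as a block, and leaving out each array in turn. Leaving out both arrays numbered 1 was added after the data were seen. Promoters are those of RefSeq on GRCr8, which the arrays do not measure. Proteins were not searched for motifs.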

Additional observations from a re-analysis of the deposited data

How the results depend on the processing

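No gene of the set that passed against normal bladder changed direction under any alternative tried. The median log2 fold change of the 45 genes moved to 1.90 in tumors and 1.53 in adjacent tissue with 50 added before log2, which compresses low signals. Centring arrays on their medians shifted the median of all genes to 0.25 in tumors and 0.21 in adjacent tissue, and shifted the set by the same amount by construction. The methods' test after adjustment called 12 genes in tumors and 14 in adjacent tissue, and limma without a variance trend called 28 in tumors and 24 in adjacent tissue (9.27% and 13.3% of all genes). Averaging probe sets ended 4 of the 40 calls in tumors and 3 of the 37 in adjacent tissue, and a fit of all 9 arrays ended that of Ect2 in adjacent tissue. Unadjusted, the methods' test called 42 genes in tumors, of which 1, Smc4, was lower, against 34.6% of all genes. In this form it called 38 in adjacent tissue, against 35.1% of all genes. Between tumors and adjacent tissue it called 1 gene, and 3.12% of all genes. Leaving out each array in turn gave 25 to 41 calls in tumors (medians 2.37 to 3.11), 22 to 39 in adjacent tissue (1.98 to 2.60) and 0 between the tissues (0.01 to 0.66). Without adjacent 3, 1 of the 31 calls, Smc4, was lower. All arrays left out in turn, 24 of the 40 calls in tumors and 22 of the 37 in adjacent tissue held.

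Directions turned only for genes that did not pass, and between tumors and adjacent tissue no gene passed. There 1 of 45 differences was negative, against 21 without adjacent 1, 14 without tumor 3 and 7 without tumor 2. Of the genes given with full statistics, the turns were these. Prc1 in tumors ran from -0.11 (without tumor 1) to 0.37 with single arrays left out, and was -0.06 without normal 3. The mean of both Smc4 probe sets gave 0.45 in tumors and 0.61 in adjacent tissue. Between tumors and adjacent tissue, Kif23 ran from -0.36 to 0.54 (without tumor 1), with 0.00 without adjacent 2, 0.10 without adjacent 3, 0.16 by the mean of its probe sets and 0.33 without both arrays numbered 1. There Smc4 ran from -0.18 (without adjacent 1) to 0.35, with -0.05 without tumor 1, -0.07 without adjacent 2, -0.15 by the mean of its probe sets and -0.26 without both arrays numbered 1. The causes were not tested.

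The design pairs tumors with adjacent tissue by rat, but the titles do not say that equal numbers mark 1 rat. Deviations from the group means correlated at r = 0.24, 0.0443 and 0.137 between arrays of the same number across probe sets, and tumor 2 correlated best with adjacent 3 (0.106). With the replicate number as a block, 0 genes passed and the median was 0.31. The median without both arrays numbered 1 was 0.33.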
